A study of Mus musculus with 24 samples.

Results

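Molecular chaperones of the heat shock families help other proteins to fold. The 10 genes described here encode the HSP70 proteins Hspa8 and Hspa2, the HSP70 exchange factor Hspa4, the HSP40 co-chaperones Dnaja1 and Dnajb1, the HSP90 pair Hsp90aa1 and Hsp90ab1, and the mitochondrial chaperones Hspa9, Hspd1 and Hspe1. They were taken by gene symbol from 8 tables of counts per CDS. All 10 were found, each as 1 transcript, in all 8 tables, out of 12759 transcripts listed in any table and 10506 listed in all of them. HSP70 binds short hydrophobic stretches of unfolded chains and releases them in a cycle of ATP hydrolysis. J-domain proteins of the HSP40 family deliver the chains and start hydrolysis, and exchange factors such as Hspa4 reopen the cycle. HSP90 acts later on near-native clients such as kinases and steroid receptors, and the Hspd1 chamber with its Hspe1 lid folds proteins imported into the mitochondrial matrix. Members of the HSP70 family were among the partners of eIF4E3 that the study looked at.

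The cells were Neuro-2a (N2a), a mouse neuroblastoma line. The ctrl cells were transfected with the empty pSpCas9(BB)-Puro vector, and the eIF4E3 KO cells with the same vector carrying guides against exons of Eif4e3, which encodes a cap-binding protein of the eIF4E family. Both went through repeated transfection and puromycin selection, and the survivors are not stated to be clones. Cells of either genotype received DMSO or 250 nM Torin1, an inhibitor of the mTOR kinase, for 2 h, which gives the conditions ctrl DMSO, ctrl Torin1, KO DMSO and KO Torin1. Each was sequenced as total mRNA (RNA-seq) and as ribosome footprints (ribo-seq), the stretches of mRNA that ribosomes shield from RNase, in 3 replicates grown as different passages. Ribo-seq ctrl DMSO replicate 2 was not analysed here, which leaves 12 RNA-seq and 11 ribo-seq libraries.

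The RNA-seq libraries held 17047795 to 28910907 counts and the ribo-seq libraries 669010 to 5284909, the lowest being ctrl DMSO replicate 3. Eif4e3 mRNA lay between 12.0 and 18.2 CPM (counts relative to the library total, with TMM scaling between libraries) in the ctrl libraries and between 2.88 and 5.04 in the KO libraries. Its footprints lay between 11.6 and 22.1 CPM in ctrl and between 2.29 and 6.61 in KO. The genotype labels thus held in every library, while some Eif4e3 RNA was still counted in KO. The treatment labels are not checked by this gene. Of 10 sympathoadrenal markers, 9 were listed and exceeded 1 CPM in every RNA-seq library, from 4.29 CPM for Th to 1547 CPM for Tubb3. Of 9 markers of fibroblasts, leukocytes, epithelium and endothelium, the 4 listed in all RNA-seq tables stayed at or under 4.58 CPM in RNA-seq. Of these, Pdgfra, Cd68 and Pecam1 also exceeded 1 CPM in every RNA-seq library. Footprints of Pdgfra and Pecam1, the 2 also listed in all ribo-seq tables, reached 7.40 and 7.43 CPM. Th, at 4.29 to 6.63 CPM for mRNA and 0 to 7.24 for footprints, was not set apart from these markers. Scaled counts are relative to the rest of the library, so a change common to all mRNAs cannot be seen in them, and in bulk samples fewer cells with an mRNA and less of it per cell cannot be told apart.

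Most of these chaperones were among the abundant mRNAs of N2a cells. Per kb of CDS, the scale used to compare genes, the mean mRNA level in ctrl DMSO was highest for Hsp90ab1 at 4027 ± 370 CPM per kb (SD, n = 3), the 9th highest of 12123 transcripts. Hspa8 followed at 1536 ± 262, Hspe1 at 970 ± 133, Hsp90aa1 at 897 ± 102, Hspd1 at 767 ± 110 and Hspa9 at 679 ± 42.4. Lower levels were measured for Hspa4 (318 ± 29.4), Dnaja1 (186 ± 29.5) and Dnajb1 (79.9 ± 1.04). At 5.72 ± 0.399, Hspa2 lay under the median of all transcripts (18.7). In this order Hspe1 and Hsp90aa1 differed by less than the SD of either, and Hspd1 and Hspa9 by less than the SD of Hspd1. Together the 10 mRNAs took 1.65% to 1.90% of the scaled counts in ctrl DMSO and 1.60% to 1.69% in ctrl Torin1, which overlap, and 1.64% to 1.79% in KO DMSO and 1.60% to 1.63% in KO Torin1, which do not. Their footprints took 2.11% and 2.51% in ctrl DMSO, 2.25% to 2.73% in KO DMSO, 1.36% to 1.48% in ctrl Torin1 and 1.44% to 1.55% in KO Torin1. The summed footprint share was thus lower in each of the 6 Torin1 libraries than in any of the 5 DMSO libraries. This sum is weighted to the most abundant members and does not describe each gene. Mean footprints of Hspa8 went from 5807 to 1276 CPM in ctrl and from 6571 to 1409 in KO. Those of Hsp90ab1 went from 7176 to 2759 and from 7478 to 2717. Footprint log2 fold changes with Torin1 were below 0 for 8 members and above 0 for 2 in each genotype. Of all transcripts, 51.3% (ctrl) and 51.2% (KO) were above 0. The 8 include changes smaller than their SE, those of Dnaja1 in both genotypes and of Hspa9 in ctrl.

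**Figure D1:**
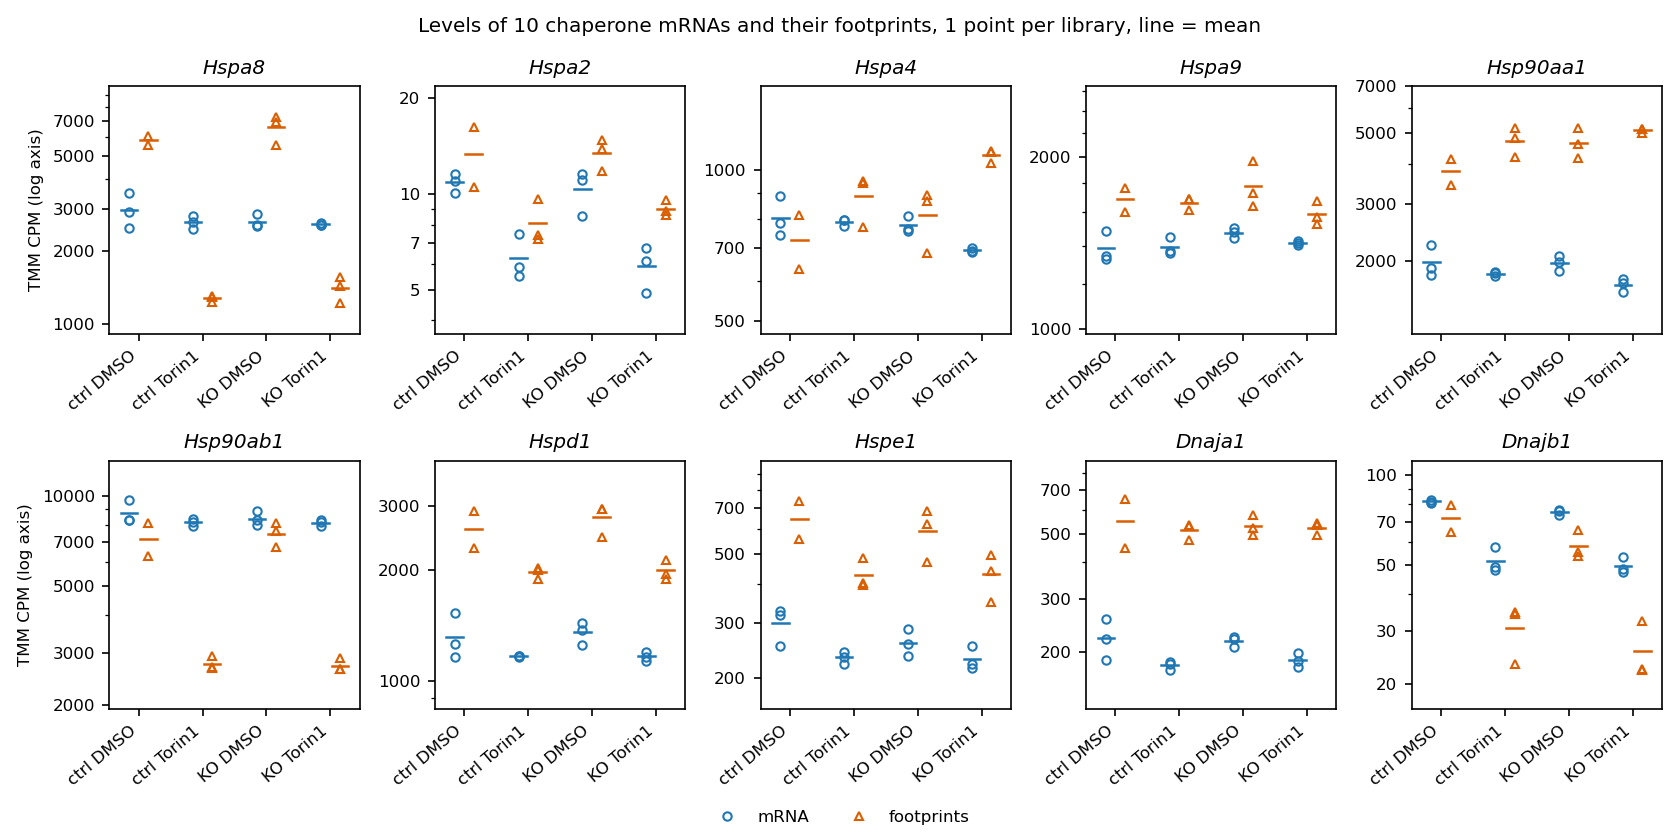
Level of each of the 10 chaperones in every library, as TMM-scaled CPM on a log axis that differs between panels, with circles for mRNA, triangles for footprints and lines for the mean of a condition. Hspa8 footprints drop from 5543 CPM or more in DMSO to at most 1569 in Torin1 while its mRNA stays between 2482 and 3513.

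The genes lie on 8 chromosomes. In GENCODE release M21 on GRCm38 (mm10), the build of the tables, the transcript of Hspa8 spans 40800984 to 40805200 on the plus strand of chromosome 9 in 9 exons, and that of Hsp90ab1 spans 45567775 to 45573271 on the minus strand of chromosome 17 in 11 exons. Hsp90aa1 (110690605 to 110696395, minus strand) and Hspa2 (76404176 to 76406938, plus strand) are on chromosome 12, Dnajb1 is on chromosome 8 (83608193 to 83612653, plus strand), Dnaja1 on chromosome 4 (40722922 to 40737149, plus strand) and Hspa4 on chromosome 11 (53259814 to 53300457, minus strand). The counts cover the CDS, which is 309 nt long for Hspe1 and between 1023 nt (Dnajb1) and 2529 nt (Hspa4) for the others. The annotated 5′ TL was longest in Hspa8 (370 nt), followed by Hspa4 (291 nt), Hspe1 (278 nt), Hspd1 (248 nt) and Dnaja1 (225 nt). It was shorter in Hsp90aa1 (144 nt), Dnajb1 (139 nt), Hspa2 (119 nt), Hspa9 (107 nt) and Hsp90ab1 (105 nt), against a median of 171 nt over 12699 transcripts with a complete 5′ end. None of the 10 annotated 5′ ends starts with C followed by 4 or more pyrimidines, the form of a terminal oligopyrimidine tract, which 2.34% of those transcripts have. Annotated starts need not be the ones used in N2a cells.

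Hspd1 (chromosome 1, 55077835 to 55088024, minus strand) and Hspe1 (chromosome 1, 55088132 to 55091307, plus strand) lie head to head, so that 1 stretch of DNA lies before both. It is shown because it carries the heat shock element, the binding motif of the HSF1 transcription factor, searched on both strands as GAANNTTCNNGAA and its reverse complement TTCNNGAANNTTC. In the 30 bases at chr1:55088053-55088082 of GRCm38.p6 (RefSeq), 4 inverted GAA units follow each other in 18 bases, marked in capitals, read toward either gene.
Hspd1, minus strand: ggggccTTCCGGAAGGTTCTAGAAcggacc
Hspe1, plus strand: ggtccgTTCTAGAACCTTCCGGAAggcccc
The element ends 72 bases before the RefSeq start of Hspe1 and 127 bases before that of Hspd1. RefSeq promoter windows, from 250 bases before to 50 bases after a start, were matched for 6 members. The motif was in 1 of 2 windows of Hspd1 and in that of Hspe1, and in none of those of Hspa2, Hspa4, Dnaja1 and Dnajb1. Among all 27025 genes with a window, 0.662% held it. No entry was matched for Hspa8, Hspa9, Hsp90aa1 and Hsp90ab1.

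Reads of 28 bases from a CDS can map elsewhere. For 7 members no such stretch of the CDS occurred in another transcript of the tables, and Hsp90aa1 and Hsp90ab1 shared 0.276% and 0.279% of theirs with each other. In Hspe1, 78.0% of the stretches were not unique to its CDS, so its values are uncertain.

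The first question was what mTOR inhibition did to the mRNAs of these chaperones and to their translation. In ctrl cells, Hspa8 footprints fell 4.54-fold, Hsp90ab1 footprints 2.59-fold, Dnajb1 footprints 2.25-fold and Hspe1 footprints 1.53-fold, as tested by edgeR's quasi-likelihood test. In KO cells the falls were 4.72-, 2.79-, 2.25- and 1.39-fold, Hspd1 footprints fell 1.41-fold, and those of Hspa4 rose 1.30-fold. At the mRNA level Hspa2 and Dnajb1 fell in both genotypes and no member rose. Footprint counts divided by mRNA counts give the translational efficiency (TE), which fell for Hspa8 and Hsp90ab1 in both genotypes. The log2 fold change of TE thus ran over the family from -2.01 to 0.44 in ctrl and from -2.21 to 0.54 in KO.

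Read against all transcripts, the counts were as follows, with calls at an adjusted p under 0.05 in edgeR's test. For footprints in ctrl, 4 of 10 members were lower and 0 higher, where 9.93% of all 10693 transcripts tested were lower and 5.69% higher. In KO, 5 members were lower and 1 was higher, against 22.1% and 18.5% of 10822 transcripts. For mRNA, 2 members were lower in each genotype, where 0.675% of transcripts were lower and 2.05% higher in ctrl, and 3.74% and 6.23% in KO. With the replicate block, the mRNA calls over all transcripts went from 299 to 1328 in ctrl and from 1097 to 1797 in KO, so this background is larger in that fit. In ctrl the TE of 2 members was lower and of 0 higher, against 4.29% and 0.383%, while KO had 3 lower members and 2 higher ones, against 17.8% and 10.6%. The median log2 fold change of the 10 members was -0.47 (ctrl) and -0.49 (KO) for footprints, where the median of all transcripts was 0.02 in both. For mRNA it was -0.17 and -0.19, beside 0.00 and -0.00 for all transcripts. Where libraries were scaled by their total alone, the median of all footprint changes moved by 0.21 in ctrl and 0.25 in KO, and that of TE by 0.17 and 0.25. The share of calls that were higher then went from 36.4% to 71.2% (ctrl) and from 45.5% to 71.1% (KO) for footprints, and from 8.20% to 36.0% and 37.4% to 69.4% for TE.

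**Figure D2:**
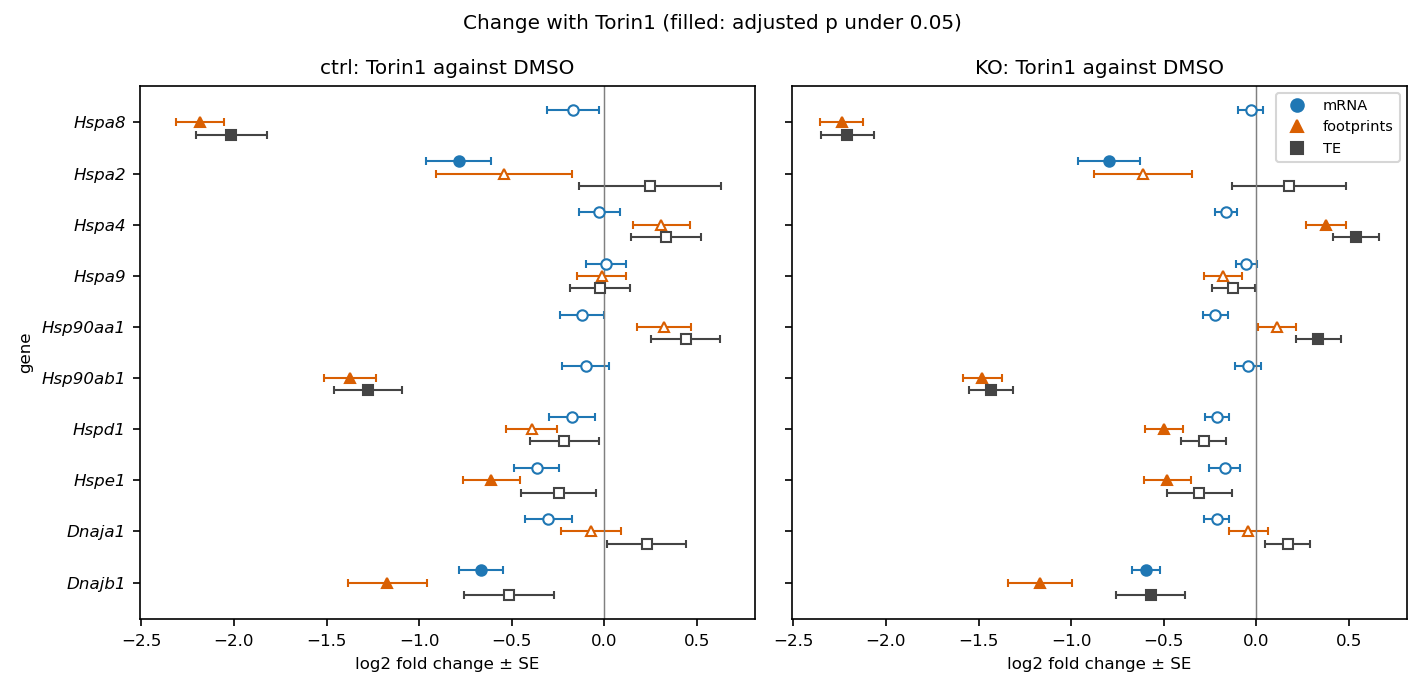
Log2 fold change with Torin1 against DMSO for each chaperone, in ctrl cells (left) and KO cells (right), with SE bars, for mRNA (circles), footprints (triangles) and TE (squares). Filled symbols passed an adjusted p of 0.05, and the lowest values in both panels are the footprints and TE of Hspa8, near -2.2 to -2.0.

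Hspa8, or HSC70, is the constitutive HSP70 of the cytosol, which also uncoats clathrin vesicles and feeds chaperone-mediated autophagy. Its mRNA stood at 2932, 3513 and 2500 CPM in ctrl DMSO, 2804, 2482 and 2650 in ctrl Torin1, 2554, 2861 and 2574 in KO DMSO and 2585, 2635 and 2586 in KO Torin1. These ranges overlap within each genotype, and the log2 fold change with Torin1 was -0.17 ± 0.14 (SE) in ctrl and -0.03 ± 0.07 in KO, neither past the threshold (edgeR, adjusted p = 0.469 and 0.811). Footprints stood at 5557 and 6057 CPM in ctrl DMSO, 1292, 1302 and 1233 in ctrl Torin1, 5543, 6926 and 7245 in KO DMSO and 1569, 1434 and 1225 in KO Torin1. The lowest DMSO library thus held over 3 times the footprints of the highest Torin1 library. The footprint change was -2.18 ± 0.13 on the log2 scale in ctrl (edgeR, adjusted p = 1.34e-09) and -2.24 ± 0.12 in KO (adjusted p = 7.58e-17). TE changed by -2.01 ± 0.19 in ctrl (edgeR, adjusted p = 6.03e-07) and -2.21 ± 0.14 in KO (adjusted p = 5.58e-12). That TE change ranked 68th from the lowest of 10432 transcripts in ctrl and 133rd of 10535 in KO.

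As a level, Hspa8 TE was 1.95 in ctrl DMSO and 2.47 in KO DMSO, where 88.6% and 93.6% of transcripts with at least 10 CPM of mRNA lay lower. It was 0.482 in ctrl Torin1 and 0.542 in KO Torin1, with 21.8% and 27.3% lower. Hspa8 thus went from the upper to the lower part of the TE range in both genotypes. All alternatives tried, 11 for footprints and 18 for TE in ctrl, 12 and 19 in KO, kept the fall of Hspa8 and Hsp90ab1 past the threshold.

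The transcripts whose footprint levels followed Hspa8 most closely over the 11 libraries were those of the ribosomal proteins Rpl7a, Rps4x and Rps24, out of 8458 ranked by the root mean square difference of log2 CPM after centring (0.15, 0.16 and 0.18). With Torin1 their footprints changed by -2.12, -2.25 and -1.98 on the log2 scale in ctrl, beside -2.18 for Hspa8. Since they were picked for likeness over these same libraries, this closeness is no separate result. Among the other members, Hsp90ab1 ranked 114th (0.42), Dnajb1 328th (0.60) and Hspa2 929th (0.83), and Hspa4 came last at 6192nd (1.28). Over the 12 RNA-seq libraries, the mRNAs of Rpl7, Eef1a1 and Cdk4, which encode a ribosomal protein, an elongation factor and a cell cycle kinase, were the closest of 8616 (0.04 to 0.05), with Hsp90ab1 207th (0.08). Likeness over these libraries is a description, since they share treatment and depth.

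Hspa2, an HSP70 best known from spermatogenesis, was the least abundant member. Its mRNA stood at 10.1, 11.6 and 10.99 CPM in ctrl DMSO and 5.52, 7.50 and 5.87 in ctrl Torin1, and at 11.5, 11.1 and 8.54 in KO DMSO and 6.13, 6.76 and 4.89 in KO Torin1. Every Torin1 library lay under every DMSO library. The fall was 1.72-fold in ctrl (log2 -0.78 ± 0.18, edgeR, adjusted p = 0.0369) and 1.73-fold in KO (-0.79 ± 0.17, adjusted p = 0.0125). In ctrl it rested on few reads and was lost without any one of the libraries of replicates 1 and 2 of ctrl DMSO and of all 3 replicates of ctrl Torin1, and without scaling. In KO it was lost without KO DMSO replicate 1 or KO Torin1 replicate 3 (adjusted p up to 0.19 in ctrl and 0.064 in KO over all alternatives). Hspa2 footprints, 10 to 71 counts per library, stood at 10.5 and 16.2 CPM in ctrl DMSO and 7.24, 7.40 and 9.65 in ctrl Torin1, and at 13.8, 14.8 and 11.8 in KO DMSO and 8.81, 9.57 and 8.57 in KO Torin1. Torin1 libraries were again lower throughout, but neither change passed the threshold (-0.54 ± 0.37 and -0.61 ± 0.27, edgeR, adjusted p = 0.348 and 0.0645). With TE changes of 0.25 ± 0.38 and 0.18 ± 0.31 on the log2 scale, a change in TE was not detectable at this depth.

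Hspa4, of the HSP110 branch, swaps ADP for ATP on HSP70. Its footprints were the ones that rose with Torin1. They stood at 683, 890 and 867 CPM in KO DMSO and 1032, 1088 and 1091 in KO Torin1, without overlap (log2 0.38 ± 0.11, edgeR, adjusted p = 0.00555). In ctrl they were 635 and 814 CPM in DMSO and 771, 953 and 942 in Torin1, which overlap (0.31 ± 0.15, adjusted p = 0.190). Without ctrl DMSO replicate 3, the shallowest library, or without scaling, this change in ctrl passed the threshold, with an adjusted p down to 0.023. TE of Hspa4 rose 1.45-fold in KO (0.54 ± 0.12, edgeR, adjusted p = 0.00182) and was 0.33 ± 0.19 higher on the log2 scale in ctrl (adjusted p = 0.405). In ctrl its mRNA stood at 886, 784 and 741 CPM in DMSO and 794, 774 and 797 in Torin1, and in KO at 764, 755 and 808 in DMSO and 689, 685 and 698 in Torin1. The groups overlapped in ctrl and not in KO, and no mRNA change passed (-0.03 ± 0.11 and -0.16 ± 0.06, edgeR, adjusted p = 0.903 and 0.101), though that in KO did without KO DMSO replicate 2 (adjusted p = 0.0254).

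Of the HSP40 pair, Dnajb1, a class B J-domain protein that is induced strongly by heat, fell in mRNA and in footprints. Its mRNA stood at 81.4, 83.0 and 80.9 CPM in ctrl DMSO, 49.1, 48.0 and 57.4 in ctrl Torin1, 73.6, 76.2 and 76.3 in KO DMSO and 53.1, 48.6 and 47.5 in KO Torin1. The fall was 1.59-fold in ctrl (-0.66 ± 0.12 on the log2 scale, edgeR, adjusted p = 0.0127) and 1.51-fold in KO (-0.60 ± 0.08, adjusted p = 0.000509). In ctrl it was lost without replicate 1 or replicate 2 of ctrl Torin1, with an adjusted p up to 0.11. Footprints went from 64.5 and 79.5 CPM in ctrl DMSO to 34.7, 34.2 and 23.3 in ctrl Torin1, and from 65.6, 53.7 and 55.2 in KO DMSO to 32.6, 22.5 and 22.3 in KO Torin1. Both changes were -1.17 on the log2 scale (SE 0.21 in ctrl and 0.17 in KO, edgeR, adjusted p = 0.000881 and 1.75e-06). What remained after the mRNA change, the change of TE, was -0.51 ± 0.24 in ctrl (edgeR, adjusted p = 0.302) and -0.57 ± 0.19 in KO (adjusted p = 0.0237). The call in KO was lost without scaling, without RNA-seq KO Torin1 replicate 1 and without ribo-seq KO DMSO replicate 1, KO Torin1 replicate 2 or KO Torin1 replicate 3, with an adjusted p up to 0.18.

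Dnaja1, the main class A J-domain partner of cytosolic HSP70, had footprints of 447 and 652 CPM in ctrl DMSO, 476, 536 and 530 in ctrl Torin1, 522, 579 and 494 in KO DMSO and 533, 494 and 542 in KO Torin1. These overlap, with log2 fold changes of -0.07 ± 0.16 and -0.04 ± 0.11 (edgeR, adjusted p = 0.805 and 0.776). Its mRNA stood at 258, 221 and 187 CPM in ctrl DMSO and 174, 185 and 181 in ctrl Torin1, and at 208, 221 and 225 in KO DMSO and 178, 199 and 186 in KO Torin1. Groups did not overlap in either genotype, at -0.30 ± 0.12 (edgeR, adjusted p = 0.186) and -0.21 ± 0.07 (adjusted p = 0.0687). The KO change passed with the replicate number as a block and with DESeq2 (adjusted p = 0.0393 and 0.0497), and the ctrl change passed without ctrl DMSO replicate 3 (adjusted p = 0.0337). Dnaja1 had the highest TE of the members in ctrl DMSO, 2.47. Its lead over Hspe1 there was smaller than its SE (log2 1.31 ± 0.30 and 1.11 ± 0.23). TE of Dnaja1 was 2.85, 2.44 and 2.79 in ctrl Torin1, KO DMSO and KO Torin1. Hspa8 had a higher TE in KO DMSO (2.47), and Hsp90aa1 in KO Torin1 (3.03).

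Hsp90aa1 and Hsp90ab1 encode the inducible and the constitutive cytosolic HSP90. Footprints of Hsp90ab1 stood at 6273 and 8080 CPM in ctrl DMSO, 2686, 2667 and 2924 in ctrl Torin1, 6731, 8104 and 7598 in KO DMSO and 2870, 2637 and 2645 in KO Torin1. Every Torin1 library held at most 2924 CPM and every DMSO library at least 6273, a change of -1.38 ± 0.14 in ctrl (edgeR, adjusted p = 9.57e-07) and -1.48 ± 0.10 in KO (adjusted p = 1.42e-13) on the log2 scale. TE changed by -1.28 ± 0.18 (edgeR, adjusted p = 9.24e-05) and -1.43 ± 0.12 (adjusted p = 9.40e-10). Its mRNA, from 7952 to 9688 CPM in the ctrl libraries and from 7910 to 8902 in the KO libraries, overlapped between treatments (-0.10 ± 0.13 and -0.04 ± 0.07, adjusted p = 0.650 and 0.710).

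For Hsp90aa1 no fall in footprints was measured. Footprints of Hsp90aa1 stood at 3439 and 4158 CPM in ctrl DMSO and 4209, 4810 and 5190 in ctrl Torin1, without overlap, and at 4167, 5171 and 4615 in KO DMSO and 5129, 5153 and 4998 in KO Torin1. Neither change passed (0.32 ± 0.14 and 0.11 ± 0.10 on the log2 scale, edgeR, adjusted p = 0.143 and 0.398). In ctrl it passed without ctrl DMSO replicate 3 or without scaling, with an adjusted p down to 0.014, and in KO it passed without scaling (adjusted p = 0.00279). Its mRNA was 1595 to 1750 CPM in KO Torin1 and 1862 to 2066 in KO DMSO (-0.22 ± 0.07, edgeR, adjusted p = 0.0586, and 0.0444 with the replicate block or 0.0270 with DESeq2). TE of Hsp90aa1 rose in KO (0.34 ± 0.12, adjusted p = 0.0392), a call that 10 of 19 alternatives kept and that was lost without 8 of the 12 libraries in turn. In ctrl the TE change was 0.44 ± 0.19 (adjusted p = 0.226).

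The ratio between both HSP90 genes, per kb of CDS, puts this in 1 number for each library. For mRNA, Hsp90ab1 exceeded Hsp90aa1 3.76- to 5.43-fold in ctrl DMSO, 4.41- to 4.63-fold in ctrl Torin1, 4.07- to 4.56-fold in KO DMSO and 4.58- to 5.19-fold in KO Torin1. For footprints the ratio was 1.85 and 1.97 in ctrl DMSO and 1.59 to 1.67 in KO DMSO, but 0.561 to 0.646 in ctrl Torin1 and 0.518 to 0.567 in KO Torin1. With Torin1, then, fewer footprints per kb lay on Hsp90ab1 than on Hsp90aa1 in all 6 libraries, and in DMSO more lay on it in all 5. The ratio is given as a description, with no test.

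**Figure D3:**
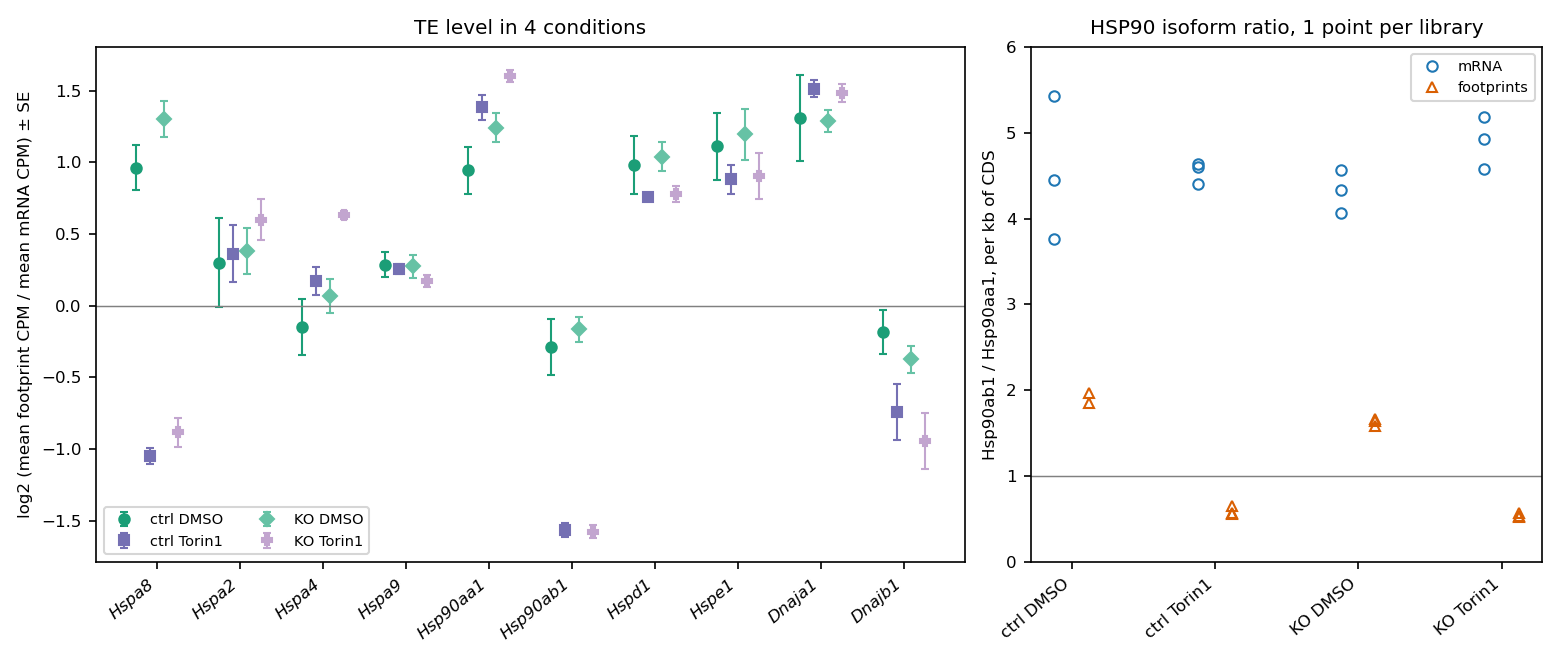
Left, TE level of each chaperone in the 4 conditions, as log2 of mean footprint CPM over mean mRNA CPM, with SE bars propagated from the libraries. Right, the ratio of Hsp90ab1 to Hsp90aa1 per kb of CDS in each library, which for footprints is above 1 in all DMSO libraries and at most 0.646 in all Torin1 libraries.

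Among the mitochondrial members, footprints of Hspe1 fell in both genotypes and those of Hspd1 in KO, while no change of Hspa9 passed the test. Footprints of Hspd1 (HSP60) stood at 2305 and 2893 CPM in ctrl DMSO, 1999, 2025 and 1899 in ctrl Torin1, 2470, 2944 and 2943 in KO DMSO and 2140, 1960 and 1900 in KO Torin1. The groups did not overlap in either genotype. The change was -0.50 ± 0.10 on the log2 scale in KO (edgeR, adjusted p = 0.000239) and -0.39 ± 0.14 in ctrl (adjusted p = 0.0638, and 0.0142 with the replicate block). Its mRNA was 1166 to 1532 CPM in ctrl DMSO and 1162 to 1171 in ctrl Torin1 (-0.18 ± 0.12, edgeR, adjusted p = 0.396), and 1256 to 1436 in KO DMSO and 1137 to 1204 in KO Torin1 (-0.21 ± 0.07, adjusted p = 0.0680, and 0.0409 with DESeq2). TE of Hspd1 changed by -0.22 ± 0.19 in ctrl and -0.28 ± 0.12 in KO (edgeR, adjusted p = 0.621 and 0.0864).

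Hspe1 (HSP10), whose start faces that of Hspd1 across the heat shock element shown above, had footprints of 738 and 556 CPM in ctrl DMSO and 485, 402 and 397 in ctrl Torin1. In KO they were 685, 622 and 470 CPM in DMSO and 497, 442 and 352 in Torin1, which overlap. The fall was -0.61 ± 0.15 on the log2 scale in ctrl (edgeR, adjusted p = 0.0112) and -0.48 ± 0.13 in KO (adjusted p = 0.00327). Without scaling both calls were lost, with values of -0.40 and -0.23, and in ctrl the call was also lost without ctrl DMSO replicate 1, ctrl Torin1 replicate 2 or ctrl Torin1 replicate 3. Its TE change was -0.25 ± 0.20 in ctrl and -0.31 ± 0.17 in KO (edgeR, adjusted p = 0.603 and 0.201). Hspe1 mRNA was 253 to 329 CPM in ctrl DMSO and 221 to 242 in ctrl Torin1 (-0.36 ± 0.12, edgeR, adjusted p = 0.119, and 0.0185 without ctrl DMSO replicate 3) and overlapped in KO, at 235 to 286 CPM in DMSO and 215 to 253 in Torin1 (-0.17 ± 0.09, adjusted p = 0.227).

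Hspa9 (mortalin), the HSP70 that pulls precursors into the matrix, had footprints of 1603 and 1766 CPM in ctrl DMSO, 1615 to 1688 in ctrl Torin1, 1643 to 1966 in KO DMSO and 1529 to 1674 in KO Torin1. Its mRNA was 1326 to 1484 CPM in ctrl DMSO, 1360 to 1448 in ctrl Torin1, 1442 to 1499 in KO DMSO and 1403 to 1423 in KO Torin1. The log2 fold changes with Torin1 were -0.01 ± 0.13 and -0.18 ± 0.10 for footprints, 0.01 ± 0.11 and -0.05 ± 0.06 for mRNA and -0.02 ± 0.16 and -0.12 ± 0.11 for TE, none past the threshold (edgeR, adjusted p from 0.165 to 0.973). Footprints of Hspa9 and Dnaja1 both overlapped between DMSO and Torin1 in each genotype.

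The second question was whether these responses differed between the genotypes. In a model of all 4 conditions, the interaction of genotype with treatment passed the threshold for 0 of 10 members in mRNA (0% of 11072 transcripts), footprints (0.114% of 10563) and TE (0% of 10376). No member reached even an unadjusted p under 0.05, where 108, 730 and 591 of all transcripts did, and no alternative, DESeq2 included, called a member, while DESeq2 called 16 of all transcripts for TE. The TE change with Torin1 was lower in KO than in ctrl by 0.17 ± 0.23 on the log2 scale for Hspa8 (difference -0.17, 95% interval -0.63 to 0.28). For Hsp90ab1 the difference was -0.14 (-0.53 to 0.26), and for Hspa4 it was 0.22 (-0.20 to 0.65). Differences up to these bounds are possible within the error of the data.

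The third question was how KO cells differed from ctrl cells at a given treatment. The replicates were passages of the selected cells. A difference by loss of eIF4E3 therefore cannot be told apart from one between the selected populations. In DMSO no member passed the test in mRNA (0.0183% of 10924 transcripts called), footprints (0.0279% of 10757) or TE (0% of 10475). No member had an unadjusted p under 0.05 in these tests, and no other tool called one. With the replicate block, 866 of all transcripts were called for mRNA instead of 2, again with 0 members. The log2 differences of KO from ctrl ran from -0.20 (Hspe1) to 0.10 (Hspa9) for mRNA and from -0.26 (Dnajb1) to 0.29 (Hsp90aa1) for footprints. Hspa8 differed by -0.16 ± 0.15 in mRNA and 0.18 ± 0.15 in footprints.

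With Torin1 present, 1 member stood apart, Hspa4. Its mRNA was lower in KO (689, 685 and 698 CPM) than in ctrl (794, 774 and 797), by 0.18 ± 0.04 on the log2 scale (edgeR, adjusted p = 0.0464), where 1.96% of 11007 transcripts were called. Its footprints were higher in KO (1032, 1088 and 1091 CPM) than in ctrl (771, 953 and 942), by 0.27 ± 0.10 (adjusted p = 0.0976, and 0.0364 with the replicate block), where 6.03% of 10792 transcripts were called. Neither set of libraries overlapped. The TE of Hspa4 was 1.37-fold higher in KO (0.46 ± 0.10, edgeR, adjusted p = 0.0112), where 2.85% of 10509 transcripts were called. That call held without each of the 12 libraries in turn, and was lost when all 4 conditions were fitted together (0.45 ± 0.15, adjusted p = 0.191). The mRNA call was lost without any one of 5 of the 6 libraries, ctrl Torin1 replicate 2 being the exception, and also without scaling, without a filter on low counts and with all conditions fitted together, with an adjusted p up to 0.82. Since the interaction was not called for Hspa4, the KO difference in Torin1 is not shown to differ from that in DMSO (0.21 ± 0.20 for TE).

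The other members did not pass with Torin1 present. For Hspa8, KO differed from ctrl by -0.02 ± 0.05 in mRNA, 0.14 ± 0.10 in footprints and 0.17 ± 0.10 in TE (edgeR, adjusted p = 0.887, 0.424 and 0.415). TE of Hsp90aa1 was 0.22 ± 0.10 higher (adjusted p = 0.236), while Hsp90ab1 differed by -0.00, -0.02 and -0.01 in mRNA, footprints and TE with SEs of 0.04 to 0.09. Differences of Hspd1, Hspe1, Dnaja1 and Hspa9 lay between -0.08 and 0.06 in all 3 measures. Leaving Hspa2 aside, Dnajb1 had the widest error for footprints, -0.24 ± 0.21, with 39 to 74 counts per Torin1 library.

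**Figure D4:**
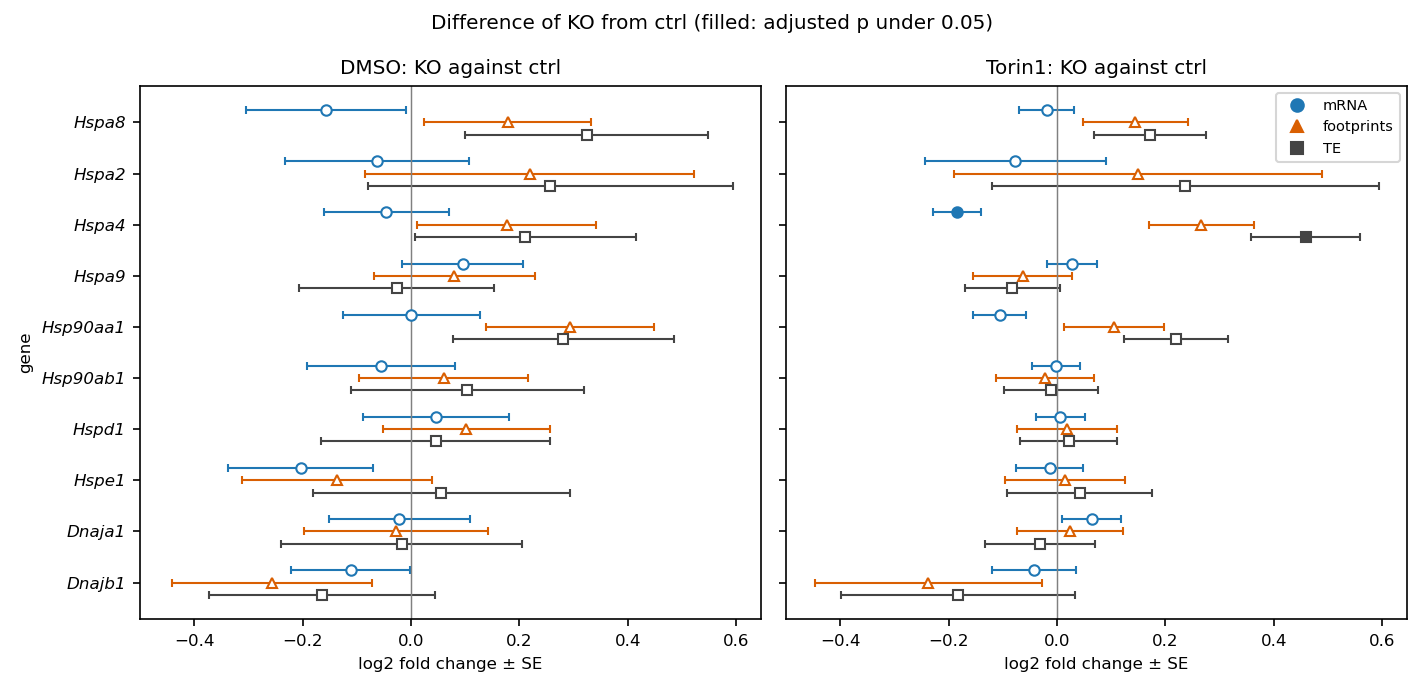
Log2 difference of KO from ctrl for each chaperone in DMSO (left) and in Torin1 (right), with SE bars, for mRNA (circles), footprints (triangles) and TE (squares). The filled symbols, adjusted p under 0.05, are the mRNA (-0.18) and TE (0.46) of Hspa4 with Torin1.

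Beyond the 10 members, 91 genes of the chaperone network in 7 lists were followed, 84 of which were in the tables. Hspa1a, Hspa1b, Hspa1l, Dnaja4, Bag1, Cct6a and Hspb1 were not analysed here. The counts below stand beside the shares of all transcripts tested with Torin1, for footprints 9.93% lower and 5.69% higher in ctrl and 22.1% and 18.5% in KO, and for TE 4.29% and 0.383% in ctrl and 17.8% and 10.6% in KO. TRiC is the cytosolic folding chamber for actin and tubulin. Of 13 measured subunits of TRiC and of prefoldin, its delivery partner, 6 had lower footprints in ctrl and 9 in KO, with 0 and 1 higher, where 9.93% and 22.1% of all transcripts were lower. TE was lower for 3 in ctrl and 8 in KO (1 higher). The median TE change was -0.15 in ctrl and -0.45 in KO, where the median of all transcripts was -0.01. The prefoldin subunit Pfdn5 led with TE changes of -1.55 ± 0.25 (edgeR, adjusted p = 0.00029) and -1.97 ± 0.16 (adjusted p = 4.79e-10). The TRiC subunits Cct2 (-0.96 ± 0.16 and -1.35 ± 0.13) and Cct4 (-0.79 ± 0.17 and -1.11 ± 0.14) followed.

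Of 16 mitochondrial chaperones and proteases, 5 had lower footprints in ctrl and 9 in KO, with 1 and 2 higher, beside the same 9.93% and 22.1% lower. TE was lower for 1 and higher for 0 in ctrl, against 4.29% and 0.383% of all transcripts. In KO it was lower for 5 and higher for 3, against 17.8% and 10.6%. The median TE change of the list was -0.09 in ctrl and -0.27 in KO. Hscb, the J-domain protein of iron-sulphur cluster assembly, had the largest change of those named, -1.66 ± 0.36 for footprints in ctrl and -2.24 ± 0.31 in KO (edgeR, adjusted p = 0.0034 and 6.87e-07). Grpel1, the exchange factor of Hspa9, fell by 0.75 ± 0.16 in ctrl footprints (adjusted p = 0.00338), and Timm44, which tethers Hspa9 to the import channel, fell by 0.85 ± 0.13 in KO (adjusted p = 2.04e-06). The footprints of Hspa9 itself did not pass in either genotype.

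For the partners of cytosolic HSP70 and HSP90 the calls went both ways, and in KO the numbers of calls were near the shares of all transcripts (22.1% lower and 18.5% higher for footprints). Of 18 J-domain proteins, 3 had lower and 2 higher footprints in ctrl, and 5 and 2 in KO. Footprints of Dnaja2, another class A J-domain protein, fell by 0.79 ± 0.14 on the log2 scale in ctrl (edgeR, adjusted p = 0.00078) and by 0.85 ± 0.11 in KO (adjusted p = 1.42e-07), and its TE fell in both genotypes (-0.68 ± 0.18 and -0.74 ± 0.12). Dnajb5 was the 1 gene of the lists whose mRNA was called higher, 2.21-fold in ctrl (edgeR, adjusted p = 0.000604) and 2.19-fold in KO (adjusted p = 8.32e-05). In KO, lower mRNA was called for the HSP90 co-chaperones Ptges3 (-0.28 ± 0.07), Fkbp4 (-0.27 ± 0.07) and Chordc1 (-0.33 ± 0.09). The same held for Pfdn2 (-0.28 ± 0.07) and Phb (-0.29 ± 0.08), and in both genotypes for Hspb8, described below. For mRNA, 2.05% of all transcripts were higher and 0.675% lower in ctrl, and 6.23% and 3.74% in KO. Among 8 exchange factors and regulators, Bag5 footprints rose 1.62-fold in ctrl (adjusted p = 0.0388, and 0.113 with the replicate block) and 1.81-fold in KO (adjusted p = 0.000168), while those of the HSP70 and HSP90 adaptor St13 fell 1.51-fold in KO. Of 17 HSP90 co-chaperones, 3 had lower footprints in ctrl (0 higher) and 5 in KO (2 higher), with Fkbp4, a steroid receptor co-chaperone, falling in both (-0.47 ± 0.14 and -0.68 ± 0.11). TE of 0 of them passed in ctrl, and 3 were lower and 1 higher in KO.

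The HSP70 relatives Hspa4l, Hspa12a, Hspa12b, Hspa13, Hspa14 and Hsph1 gave 1 call, Hspa12a footprints in KO (-0.48 ± 0.20, edgeR, adjusted p = 0.0483). Of 5 measured heat shock factors and small heat shock proteins, Hspb8 was the one called. Its mRNA fell in ctrl (-0.46 ± 0.10) and KO (-0.36 ± 0.07), while in KO its footprints rose 1.22-fold (adjusted p = 0.0435) and its TE 1.58-fold (adjusted p = 0.000413).

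**Figure D5:**
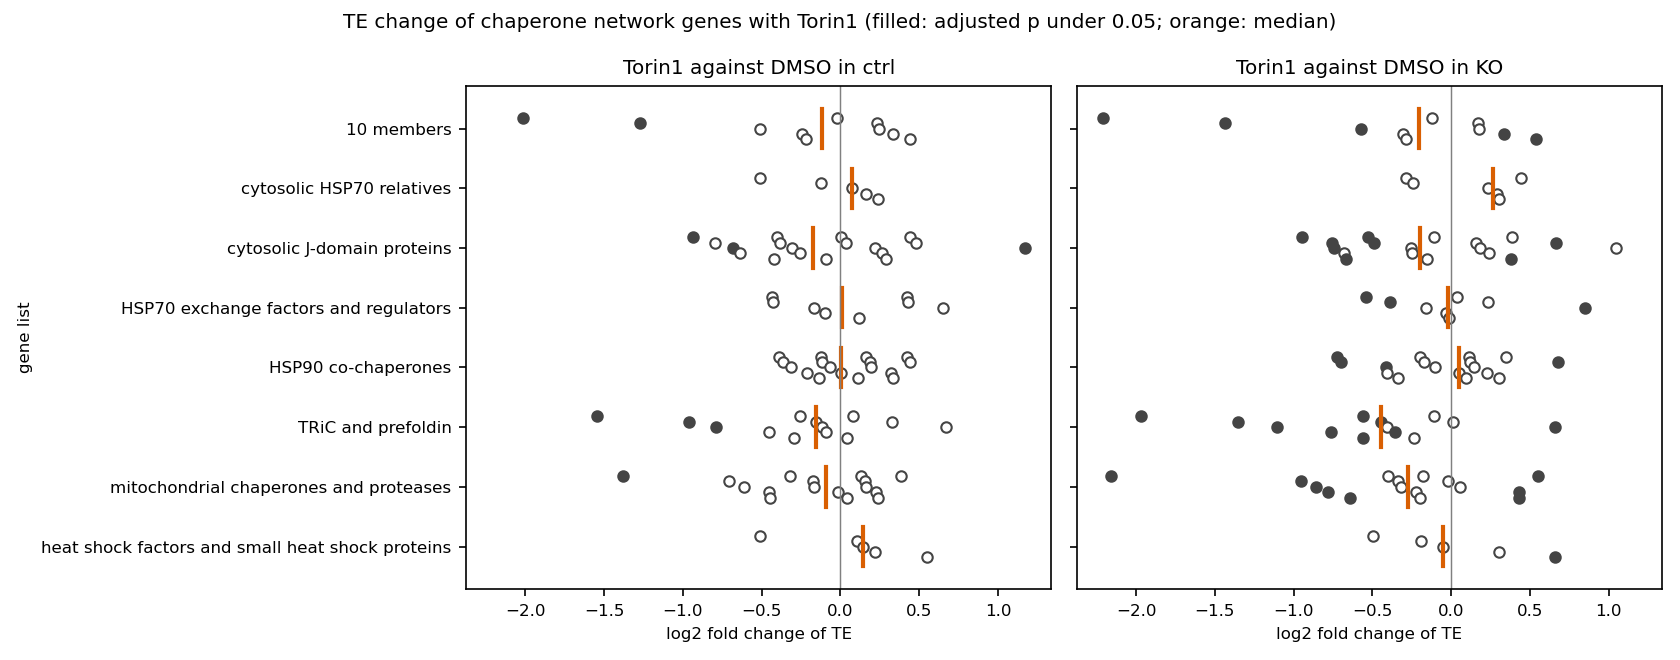
Log2 fold change of TE with Torin1 for every measured gene of the 10 members and the 7 lists, in ctrl (left) and KO (right), with filled points past an adjusted p of 0.05 and orange bars at the median. The medians lie between -0.45 (TRiC and prefoldin, KO) and 0.27 (HSP70 relatives, KO), and the lowest point among the members is Hspa8.

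Between genotypes, 0 genes of the lists passed in DMSO in any measure. Of all transcripts, 0.0183% were called there for mRNA, 0.0279% for footprints and 0% for TE. With Torin1 present, 3 of 16 mitochondrial genes had lower footprints in KO, where 433 of 10792 transcripts were lower and 218 higher. The 3 mitochondrial genes were the protease Lonp1 (-0.49 ± 0.10, edgeR, adjusted p = 0.00198) and the prohibitins Phb2 (-0.48 ± 0.11, adjusted p = 0.00527) and Phb (-0.39 ± 0.10, adjusted p = 0.0119), with 0 of the list higher, and the TE of Lonp1 was also lower (-0.45 ± 0.11, adjusted p = 0.0157). The footprints of the mitochondrial members Hspd1 and Hspe1 differed by 0.02 ± 0.09 and 0.01 ± 0.11 there. Prefoldin subunit Pfdn2 was lower by 0.68 ± 0.11 (adjusted p = 4.59e-05), and its TE by 0.53 ± 0.12 (adjusted p = 0.013). Chordc1, an HSP90 co-chaperone, was higher (0.41 ± 0.11, adjusted p = 0.0208), and Fkbp4 and the HSP70 exchange factor Hspbp1 were lower (-0.37 ± 0.10 and -0.53 ± 0.15, adjusted p = 0.0179 and 0.0224). For mRNA 1 gene of the lists passed, the exchange factor Bag3, which was lower in KO (-0.23 ± 0.05, adjusted p = 0.0315). Of all transcripts with Torin1 present, 1.96% were called for mRNA and 2.85% for TE. The interaction of genotype with treatment was called for 0 genes of the lists in any measure. It was called for 0.114% of all transcripts for footprints and 0% for mRNA and TE. The KO differences with Torin1 are thus not shown to differ from those in DMSO.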

How the data were processed

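RNA-seq and ribo-seq of N2a cells were compared in 4 conditions. The authors trimmed reads with cutadapt, mapped them with HISAT2 (mm10) and bowtie2 (canonical Ensembl transcripts) and deposited counts per CDS without normalization, for ribo-seq as P-sites from riboWaltz, in 8 tables. Their columns of fold change, p-value and FDR, and 2 TE tables with the authors' TE and test, were not used. In 1 RNA-seq table, 2 columns per genotype carry the same number, and labelled columns of other tables were used instead. The 10 members and 7 lists were chosen with earlier results of these data known. One item is not reported here.

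Pairs of conditions were tested with edgeR 4.0.16 (TMM, quasi-likelihood F-test, Benjamini-Hochberg, threshold 0.05) on transcripts over 1 CPM in all libraries of at least 1 condition, TE as the interaction of assay with condition. Scripts were tested on simulated data. Levels are CPM scaled over all libraries of an assay. Named are all members, Eif4e3, up to 3 genes per list with the smallest adjusted p, and the 3 transcripts nearest to Hspa8 (mean of at least 10 CPM, pseudocount 0.5). Tools were R 4.3.3, limma 3.58.1, DESeq2 1.42.0, Python 3.11.15, numpy 2.4.6, pandas 2.3.3 and matplotlib 3.10.9.

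Per the labels the replicates are different passages of the cells. The main tests did not pair libraries, and the replicate number paired them only in the replicate block. Across transcripts, r between same-numbered libraries after removing condition means was 0.031 to 0.66 for RNA-seq and -0.039 to 0.13 for ribo-seq. Between libraries of different number it was -0.51 to 0.36 and -0.13 to 0.11. In RNA-seq of Torin1 against DMSO, same-numbered pairs gave at least 0.065 (ctrl) and 0.14 (KO). Other pairs gave at most 0.031 and -0.040 there, while for RNA-seq of KO against ctrl both kinds of pair overlapped. The p-values measure the spread between these passages, not between independently edited populations.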

Additional observations from a re-analysis of the deposited data

How the results depend on the processing

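Alternatives were the replicate block, DESeq2, other scaling, no filter on low counts, all 4 conditions in one fit, limma-voom (TE) and leaving out each library. Of 2295 recomputed member values, 2233 kept their side of the threshold, 38 lost a call and 24 gained one. No called value changed sign, and 176 uncalled ones did. For mRNA with Torin1, the 2 members called in ctrl became 1 without scaling beyond library size and 0 to 4 without one library, and the 2 in KO became 4 with the replicate block, 5 with DESeq2 and 1 to 5 without one library. Between KO and ctrl with Torin1, the 1 member called for mRNA became 0 without scaling, without the filter and with all 4 conditions in one fit, and 0 to 1 without one library. For footprints there, 0 became 1 with the replicate block, and for TE 1 became 0 with all 4 conditions in one fit. TE calls with Torin1 in KO, 5, ranged from 3 to 6 without one library, and footprint calls in ctrl, 4, from 3 to 6. The block changed no other call than those given beside the results. Calls over all transcripts moved more. For mRNA with Torin1 in ctrl, 299 became 1328 with the replicate block, 723 with DESeq2, 1221 with all 4 conditions in one fit and 113 to 1477 without one library. In KO, 1097 became 1797 with the block, 557 with all conditions and 438 to 1468 without one library. For mRNA between KO and ctrl, 2 in DMSO became 866 with the block, 21 with DESeq2, 19 with all conditions and 0 to 10 without one library, and 216 with Torin1 became 1041, 342, 6 and 6 to 174. Footprint calls were 1670 with Torin1 in ctrl and 947 with DESeq2, and 651 between genotypes with Torin1 and 422 and 411 with DESeq2 and all conditions. TE calls were 488 in ctrl and 846 with all conditions, and 299 between genotypes with Torin1, 501 with DESeq2, 72 with all conditions and 154 with limma-voom. The causes were not tested. Where a library was left out of ribo-seq ctrl DMSO, the 1 remaining was assumed to vary like the other groups. Ribo-seq depth, lowest in ctrl DMSO replicate 3, limits what can be seen for Hspa2 (10 to 71 footprints).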
